A study of Mus musculus with 28 samples.

Results

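Subclone 2 is 1 of 5 clonal lines that were sorted as single cells from WT5, a monoclonal wild-type line of mIMCD-3. It was compared here with subclones 1, 3, 4 and 5 over 4 RNA-seq libraries of subclone 2 and 16 libraries of the others, out of 28 libraries in the series. Of 45706 genes in the table of the subclones, 12272 had a mean of at least 1 TPM (transcripts per 1e6, scaled to gene length) in subclone 2 or in the others and were kept. The 4 WT5 libraries stand in a table that was normalized separately, and they served only to show on which side the level of the parent line lay. mIMCD-3 is an epithelial line taken from a mouse that carried the SV40 early region, and its source is the inner medullary collecting duct of the kidney. All groups share that origin and are unedited. Each subclone is a single clone that was expanded from 1 cell, and RNA was taken 4 days after confluency. For polyclonal and monoclonal lines the methods speak of biological replicates, while a legend on the polyclonal line and WT5 speaks of technical ones. The kind of replicate is not stated for the subclones by name. The p-values below thus measure the spread between libraries only.

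The inner medullary collecting duct concentrates urine, and its principal cells take up water through aquaporins and urea through urea transporters. A cell line that is grown from 1 cell can carry forward stable states of that founder, such as genomic imprinting. Imprinting keeps a gene active on the copy from 1 parent and silent on the other.

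The identity of the cells was checked against fixed markers. In subclone 2 the epithelial genes Epcam (522 TPM), Krt8 (620 TPM), Krt18 (709 TPM) and Cdh1 (88.9 TPM) and the renal transcription factor Pax2 (35.6 TPM) were present. The principal cell water channel Aqp2 was listed at 0 in all subclones, and the vasopressin receptor gene Avpr2 had a mean of 0.030 TPM in subclone 2. Of the collecting duct list, 12 of 21 markers were kept and 1, the urea transporter gene Slc14a2, was called. Few markers of other cell types reached the level for analysis, namely 1 of 10 for intercalated cells, 2 of 14 for proximal tubule, 2 of 8 for thick limb and distal tubule, 2 of 7 for podocytes, 3 of 13 for fibroblasts, 1 of 8 for endothelium and 2 of 8 for leukocytes. No subclone 2 library stood apart, since the 4 libraries correlated with each other across genes at r = 0.976 to 0.984 and with the other subclones at 0.959 to 0.976. Between 16584 and 16686 genes were above 0 in each of them.

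To find what sets subclone 2 apart, each gene was compared with the unweighted mean of the 4 other subclones and with each of them on the scale log2(TPM + 0.1). A gene was called at an adjusted p below 0.01 with a log2 difference above 1 in size. Against the mean of the others, 51 genes were higher (0.416%) and 45 were lower (0.367%) in subclone 2, together 0.782% of the genes tested. Called genes numbered 113 against subclone 1 (0.921%), 103 against subclone 3 (0.839%), 184 against subclone 4 (1.5%) and 153 against subclone 5 (1.25%). A gene was counted as specific to subclone 2 when it passed all of these comparisons in the same direction. This left 23 genes (0.187%), 4 of them higher (0.0326%) and 19 lower (0.155%). In all 23 the 4 libraries of subclone 2 lay outside the range of the 16 others, which the rule itself favours and which adds no separate support. Among all 12272 genes kept, 145 (1.18%) had this pattern. The same rule gave 21 specific genes for subclone 1, 12 for subclone 3, 50 for subclone 4 and 29 for subclone 5.

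**Figure D1:**
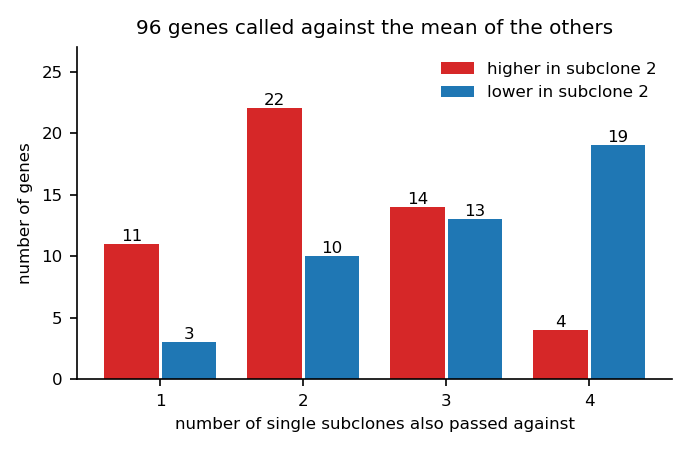
Number of genes (y axis) called against the mean of the other 4 subclones, by how many single subclones they also passed against in the same direction (x axis), with higher genes in red and lower genes in blue. Of the lower genes 19 passed against all 4 subclones, and of the higher genes 4 did.

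Most of the genes higher against the mean did not pass against all 4 single subclones. Of the 51 higher genes, 11 passed against 1 single subclone, 22 against 2 and 14 against 3. Of the 45 lower genes, 3 passed against 1 single subclone, 10 against 2 and 13 against 3. The level filter acts on this split. All 4 specific higher genes were kept only through their level in subclone 2, where 126 genes were kept in that way, and 13 of the 19 specific lower genes were kept only through the others, where 218 were. The remaining 6 lower genes passed the level on both sides, as did 11928 genes in all.

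The largest difference was that of Cdcp1, which encodes a transmembrane glycoprotein with CUB domains that is phosphorylated by Src family kinases. Cdcp1 (ENSMUSG00000035498, GRCm38 chr9:123170824-123216038, minus strand) was listed at 0 TPM in each of the 4 libraries of subclone 2. In the 16 other libraries it ranged from 15.4 TPM through a median of 19.9 TPM to 36.9 TPM, and WT5 had 31.4 ± 0.41 TPM (SD, n = 4). The means of the others were 15.99 TPM (subclone 1), 23.9 TPM (subclone 3), 18.3 TPM (subclone 4) and 32.1 TPM (subclone 5). The log2 difference from their mean was -7.77 ± 0.064 (SE; limma, adjusted p = 8.6e-23). Its size depends on the added 0.1 TPM because no library of subclone 2 was above 0. The 4 values of 0 also have no spread, which lowers the SE. All libraries of the 4 other subclones and of WT5 had the transcript, and it was not detected in subclone 2.

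Ccl2, which encodes the chemokine that attracts monocytes, was almost absent as well. The libraries of subclone 2 had 0.12, 0.070, 0.070 and 0 TPM. In the others Ccl2 ranged from 13.2 TPM through a median of 22.3 TPM to 30.9 TPM. The ratio of the means was 346-fold and the log2 difference -7.12 ± 0.15 (SE; limma, adjusted p = 4.4e-16). WT5 stood at 12.8 ± 2.2 TPM (SD, n = 4), below the means of the 4 other subclones and far above subclone 2. Ccl2 was the only 1 of 24 chemokine, cytokine and complement genes kept that was called. The median log2 difference of that list was -0.28, beside 0.021 over all genes kept. Since these are bulk libraries, fewer cells with a transcript and less transcript in each cell cannot be told apart for this or any gene below.

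Another group of transcripts at or near 0 lay in 1 imprinted domain of chromosome 7. Snrpn encodes a spliceosomal protein and is transcribed from the paternal copy, Snurf shares its transcript, and Snhg14 is a long noncoding RNA that runs on from it, hosts small nucleolar RNAs and reaches the neighbouring gene Ube3a in antisense. Snrpn (chr7:59982495-60140219, minus strand) was listed at 0 TPM in all 4 libraries of subclone 2. In the others it ranged from 3.50 TPM through a median of 4.41 TPM to 5.93 TPM, and WT5 had 6.35 ± 0.48 TPM (SD, n = 4). The log2 difference was -5.54 ± 0.069 (SE; limma, adjusted p = 5.1e-20). Snhg14 (chr7:59307924-59975759, minus strand) had 0.030, 0.020, 0 and 0.010 TPM in subclone 2. It ranged from 1.13 TPM through a median of 2.31 TPM to 3.54 TPM in the others, with a log2 difference of -4.37 ± 0.19 (SE; limma, adjusted p = 1.4e-11). The 2 genes lie 6.74 kb apart, and both were at or near 0 in subclone 2 alone. The size of both differences thus depends on the added 0.1 TPM.

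Reads of this locus are difficult to divide between genes, because Snrpn, Snurf and Gm38393 overlap on the same strand. Snurf was listed at 0 in subclone 2, but also in subclone 3 and in WT5, and in single libraries of other subclones it reached 20.8 TPM. Gm38393 was below the level for analysis, with 0 TPM in subclone 2 and 0.59 to 1.52 TPM in the others. The sum of the 3 genes was 0 in each library of subclone 2. In the other subclones the sum ranged from 4.21 to 25.6 TPM, and in WT5 from 6.47 to 7.73 TPM. The sum, an alternative chosen after the data were seen, also passed as specific at a log2 difference of -6.26 (limma, adjusted p = 1.3e-09). Since subclone 2 was at 0, the size of this difference depends on the added 0.1 TPM.

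Beyond these transcripts, Ube3a and Mkrn3 of the same region did not share the difference. Ube3a, a ubiquitin ligase gene, had 29.0 ± 1.7 TPM in subclone 2 (SD, n = 4) and 21.9 to 32.5 TPM in the others, with a log2 difference of 0.11 (limma, adjusted p = 0.47). Mkrn3, another paternally expressed gene of the region, had 0.60 ± 0.10 TPM in subclone 2 and 0.25 to 1.14 TPM in the others, below the level for analysis. Ndn and Magel2 were listed at 0 in every subclone and in WT5 and gave no information. Peg3, a paternally expressed gene elsewhere on chromosome 7, had 30.2 ± 1.5 TPM in subclone 2 and 17.6 to 33.1 TPM in the others (log2 difference 0.18; limma, adjusted p = 0.49). Of 21 genes kept of the imprinted list, Snrpn and H19 were lower and Cdkn1c was higher against the mean of the others. Over all genes kept 0.782% were called, and Snhg14 was not on that list. H19 is a maternally expressed noncoding RNA, and its libraries had 1.08, 0.50, 0.73 and 1.12 TPM in subclone 2. In the others H19 ranged from 1.82 TPM through a median of 2.55 TPM to 5.00 TPM. Its mean was 3.33-fold lower in subclone 2 (log2 difference -1.62 ± 0.15, SE; limma, adjusted p = 6.4e-07), and without replicate 2 of subclone 2 it no longer passed against all 4. Cdkn1c, a cell cycle inhibitor gene that is maternally expressed, was not specific. It had 5.66 ± 0.69 TPM in subclone 2, beside 6.36 and 6.74 TPM in subclones 3 and 4 and 1.49 and 0.81 TPM in subclones 1 and 5.

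**Figure D2:**
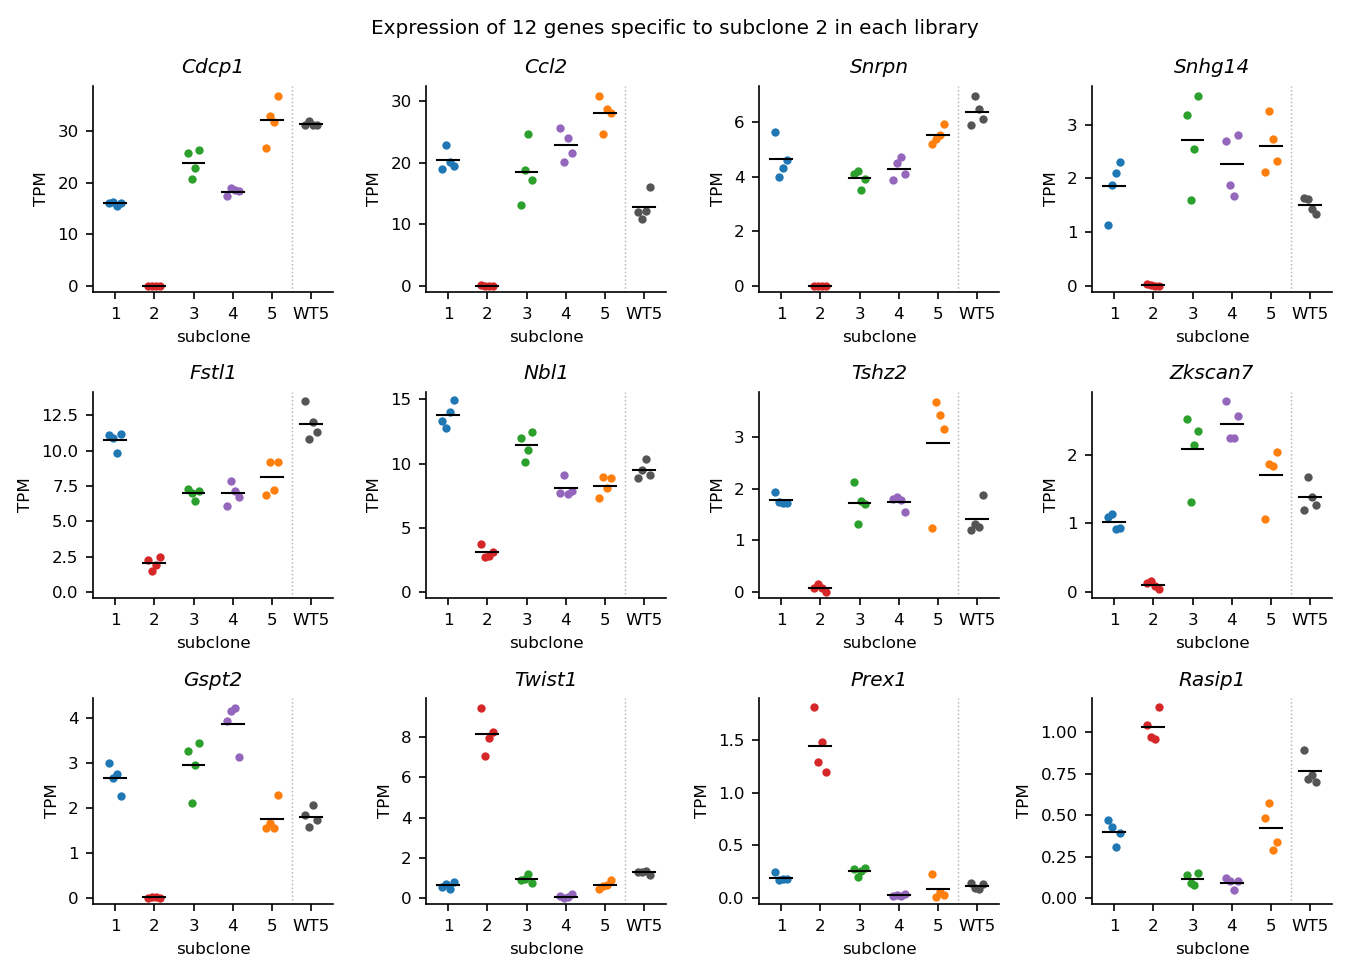
TPM (y axis, linear) of 12 genes specific to subclone 2 in each library of the 5 subclones and, right of the dotted line, of WT5 from the separately normalized table. Points are libraries and bars are means of 4, and the subclone 2 points lie near 0 for Cdcp1, Ccl2, Snrpn, Snhg14, Tshz2, Zkscan7 and Gspt2 and above all others for Twist1, Prex1 and Rasip1.

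The windows before the start sites of Cdcp1, Snurf and Twist1 are printed because Cdcp1 had the largest difference on the log2(TPM + 0.1) scale among the specific genes, the Snurf start is also 1 of the RefSeq starts of Snrpn, and Twist1 had the highest level in subclone 2 among the 4 higher genes. They are the 250 bases before the start in RefSeq (GRCm38.p6), written 5′ to 3′ on the strand of the gene, with each CG dinucleotide in capitals. The Cdcp1 window is chr9:123216039-123216288 on the minus strand, the Snurf window chr7:60005200-60005449 on the minus strand, and the Twist1 window chr12:33957421-33957670 on the plus strand.
Cdcp1: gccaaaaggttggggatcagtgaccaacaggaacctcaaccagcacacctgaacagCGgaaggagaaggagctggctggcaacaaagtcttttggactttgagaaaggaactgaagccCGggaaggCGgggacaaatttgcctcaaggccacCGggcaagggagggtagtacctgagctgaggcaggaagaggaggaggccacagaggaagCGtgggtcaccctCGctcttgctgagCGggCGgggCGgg
Snurf: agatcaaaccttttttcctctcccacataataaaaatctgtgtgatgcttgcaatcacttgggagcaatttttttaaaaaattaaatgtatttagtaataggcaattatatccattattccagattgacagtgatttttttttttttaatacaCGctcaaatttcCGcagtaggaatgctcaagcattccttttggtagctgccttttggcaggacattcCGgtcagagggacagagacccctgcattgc
Twist1: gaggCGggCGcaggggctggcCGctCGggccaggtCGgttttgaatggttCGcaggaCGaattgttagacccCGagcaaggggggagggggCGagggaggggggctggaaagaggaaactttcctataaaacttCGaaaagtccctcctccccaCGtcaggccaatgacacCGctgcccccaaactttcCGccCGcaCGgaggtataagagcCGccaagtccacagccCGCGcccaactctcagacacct

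These windows held 9 CG dinucleotides for Cdcp1, 3 for Snurf and 18 for Twist1. A window of 300 bases, from 250 before to 50 after the start, was called CpG-rich at a GC content of at least 50% and an observed over expected CG ratio of at least 0.6, read on 1 strand because CG reads the same on both. By this measure the Twist1 window was CpG-rich, and those of Cdcp1 and Snurf were not. Windows were found for 9143 of the genes kept, of which 74.1% were CpG-rich, and for 16 of the 23 specific genes. CpG-rich windows belonged to 5 of 12 specific lower genes (41.7%) and to 2 of 4 specific higher genes. Of the 12, the window taken for Snhg14 was not CpG-rich and lay 474418 bases from the annotated start of that gene. That window lay before the annotated start of Snrpn on the same strand, and may thus not be the start of Snhg14. Snrpn of the same locus is counted as well. Its window in this count is chr7:60140226-60140475, which is not the Snurf window printed above. Among genes called against the mean but not specific they belonged to 17 of 35 higher genes (48.6%) and to 11 of 17 lower genes (64.7%). These shares describe the sequence and rest on few genes, and methylation was not measured.

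A further 5 genes were more than 10-fold lower in subclone 2. Gspt2, an X-linked gene for a translation termination factor, had 0.010, 0.030, 0.020 and 0 TPM in subclone 2. In the others it ranged from 1.55 TPM through a median of 2.85 TPM to 4.23 TPM (log2 difference -4.60 ± 0.12, SE; limma, adjusted p = 7.6e-15). Tshz2, a zinc finger transcription factor of the teashirt family, had 0.080, 0.16, 0.070 and 0 TPM in subclone 2 and 1.23 to 3.68 TPM in the others, a ratio of the means of 26.2-fold. Both were near the floor of the table in every library of subclone 2.

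Bex4, a member of the X-linked Bex family, had 0.35, 0.46, 0.26 and 0.69 TPM in subclone 2. In the others Bex4 ranged from 3.42 to 29.0 TPM, with subclone 4 alone at a mean of 26.3 TPM. Of its transcript, 49.7% of 50-base stretches occur in other genes such as Bex1, so that its level is uncertain. Mpped2, a metallophosphoesterase gene, had 0.10, 0.55, 0.090 and 0.25 TPM in subclone 2 and 1.84 to 4.76 TPM in the others, a ratio of 12.01-fold. Zkscan7, a zinc finger protein gene with KRAB and SCAN domains, had 0.13, 0.16, 0.090 and 0.050 TPM in subclone 2 and 0.92 to 2.78 TPM in the others, a ratio of 16.9-fold. Zkscan7 and Cdcp1 lie 272 kb apart on chromosome 9 with 5 kept genes between them, and none of those 5 was called.

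2 secreted antagonists of bone morphogenetic proteins (BMPs) were lower at higher expression levels. Fstl1, a follistatin-like glycoprotein gene, had 2.30, 1.49, 1.91 and 2.49 TPM in subclone 2. In the others it ranged from 6.12 TPM through a median of 7.29 TPM to 11.2 TPM, and WT5 had 11.9 ± 1.2 TPM (SD, n = 4). Its mean was 4.01-fold lower in subclone 2 (log2 difference -1.95 ± 0.10, SE; limma, adjusted p = 2.4e-10). Nbl1, the DAN gene, had 3.77, 2.71, 2.84 and 3.12 TPM in subclone 2 and 7.30 TPM through a median of 9.61 TPM to 14.9 TPM in the others. Its mean was 3.34-fold lower (log2 difference -1.68 ± 0.078, SE; limma, adjusted p = 4.1e-11). Fstl1 was the only 1 of 17 kept genes of the TGF-beta family list that was called, and Nbl1 was not on that list. Fst, a related antagonist gene that was chosen here after its values were seen, had 17.0 ± 2.2 TPM in subclone 2 and 6.63 to 13.9 TPM in the others. Its adjusted p was at most 0.0068 against each subclone (limma), but its log2 difference of 0.74 from their mean was under the threshold of size.

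Of the remaining lower genes, 2 act in signalling at the membrane and stood near the level of WT5. Stk39, the kinase that activates sodium and chloride cotransporters, had 1.39, 1.02, 1.16 and 1.10 TPM in subclone 2 and a median of 4.30 TPM and a highest value of 5.66 TPM in the others, while WT5 had 1.35 ± 0.25 TPM (SD, n = 4). Tspan15, a tetraspanin gene whose product partners the protease ADAM10, had 1.18, 1.11, 1.10 and 1.03 TPM in subclone 2 and 2.81 to 6.12 TPM in the others, while WT5 had 1.45 ± 0.15 TPM. For both, subclone 2 lay near the parent line and the 4 other subclones lay above it. Eps8, which encodes an actin regulator and receptor tyrosine kinase substrate, had 0.54, 1.54, 0.84 and 0.71 TPM in subclone 2 and 1.91 to 5.34 TPM in the others. WT5 had 1.72 ± 0.36 TPM for Eps8, between the others and subclone 2.

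Pip5k1b, a kinase gene of phosphoinositide synthesis, had 0.18, 0.19, 0.070 and 0.32 TPM in subclone 2 and 0.38 to 2.27 TPM in the others. 3 specific genes fell outside the rule for named genes and are named after their values were seen, to account for every member. Ndrg4 had 1.15 ± 0.21 TPM in subclone 2 and 2.18 to 5.90 TPM in the others. Ramp2, a receptor accessory protein gene, had 1.70 ± 0.70 TPM in subclone 2 and 2.88 to 5.89 TPM in the others, but 68.9% of its 50-base stretches also occur in transcripts of Vps25. Pcsk6, a proprotein convertase gene, had 0.36 ± 0.070 TPM in subclone 2 and 0.53 to 3.21 TPM in the others. The calls of Pip5k1b, Ramp2 and Pcsk6 as specific were each lost when 1 of several single libraries was left out.

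Twist1 was the most highly expressed of the 4 genes that were higher in subclone 2. It encodes a basic helix-loop-helix transcription factor of the mesenchyme that is known for a role in epithelial-mesenchymal transition. Twist1 (chr12:33957671-33959829, plus strand) had 9.46, 7.03, 7.94 and 8.23 TPM in subclone 2. In the others it ranged from 0 through a median of 0.64 TPM to 1.19 TPM. The ratio of the means was 14.1-fold and the log2 difference 3.90 ± 0.20 (SE; limma, adjusted p = 2.3e-10). WT5 had 1.27 ± 0.079 TPM (SD, n = 4), above the 4 other subclones and far below subclone 2. The lowest library of subclone 2 was thus several times the highest library of any other group shown.

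No other member of the transition list was called. Of 23 transition factors and cadherins, 18 were kept and Twist1 was the only 1 called, with a list median of 0.15 beside 0.021 over all genes kept. Of the other 17, limma and the unequal-variance test called 0. The latter pooled the libraries of the other subclones, so that the spread between subclones entered its error. An unadjusted limma p below 0.05 was found for 7 of the 17 (41.2%), beside 18.1% of all genes kept. Cdh1, the epithelial cadherin gene, had 103, 72.6, 85.5 and 94.8 TPM in subclone 2 and 57.2 TPM through a median of 81.2 TPM to 111 TPM in the others. The groups overlapped, and the log2 difference was 0.16 ± 0.085 (SE; limma, adjusted p = 0.34). Among fibroblast markers 3 of 13 were kept and Tagln was called, an actin-binding protein gene with 2.03 ± 0.34 TPM in subclone 2 against 0.90 to 1.01 TPM in the means of the others. Tagln was not specific, its log2 difference was 1.03 with an adjusted p of 0.0010 (limma), and WT5 had 3.04 ± 0.57 TPM. Its call was kept in 13 of 20 fits without 1 library, and it was lost with libraries centred on their median, with 1 TPM added before the log, on z-scores and under the unequal-variance test. The sum of the 13 fibroblast markers was 133.6 to 172.9 TPM in subclone 2 and 66.7 to 126 TPM in the others, nearly all of it Fn1, a matrix gene that epithelial cells also express, which was not called. The fibroblast genes Col1a2, Col3a1, Lum and Pdgfra were listed at 0 in all 4 libraries of subclone 2. Their means in the others were 0, 0, 0 and 0.0006 TPM, so that this does not set subclone 2 apart. Other markers of the list were present on both sides. These include Vim (4.75 TPM in subclone 2, 4.34 TPM in the others), Col1a1 (0.36 and 0.47 TPM) and Dcn (0.23 and 0.24 TPM).

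Prex1, an exchange factor gene that activates the small GTPase Rac, had 1.81, 1.29, 1.48 and 1.20 TPM in subclone 2. In the others it ranged from 0.010 TPM through a median of 0.17 TPM to 0.29 TPM, and WT5 had 0.11 ± 0.024 TPM (SD, n = 4). The ratio of the means was 10.3-fold and the log2 difference 2.82 ± 0.18 (SE; limma, adjusted p = 5.6e-09). Rasip1, a Ras-interacting protein gene known from vessel formation, had 1.04, 0.97, 0.96 and 1.15 TPM in subclone 2 and 0.050 to 0.57 TPM in the others. WT5 had 0.76 ± 0.087 TPM for Rasip1, near subclone 2. The uncharacterized gene 9130019O22Rik had 1.54, 1.02, 1.78 and 1.56 TPM in subclone 2 and 0 to 0.12 TPM in the others, a ratio of 24.8-fold. It shares 26.4% of its 50-base stretches with Zfp747, Zfp764 and E430018J23Rik, and Rasip1 shares 17.7% with Izumo1, so that both levels are uncertain.

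**Figure D3:**
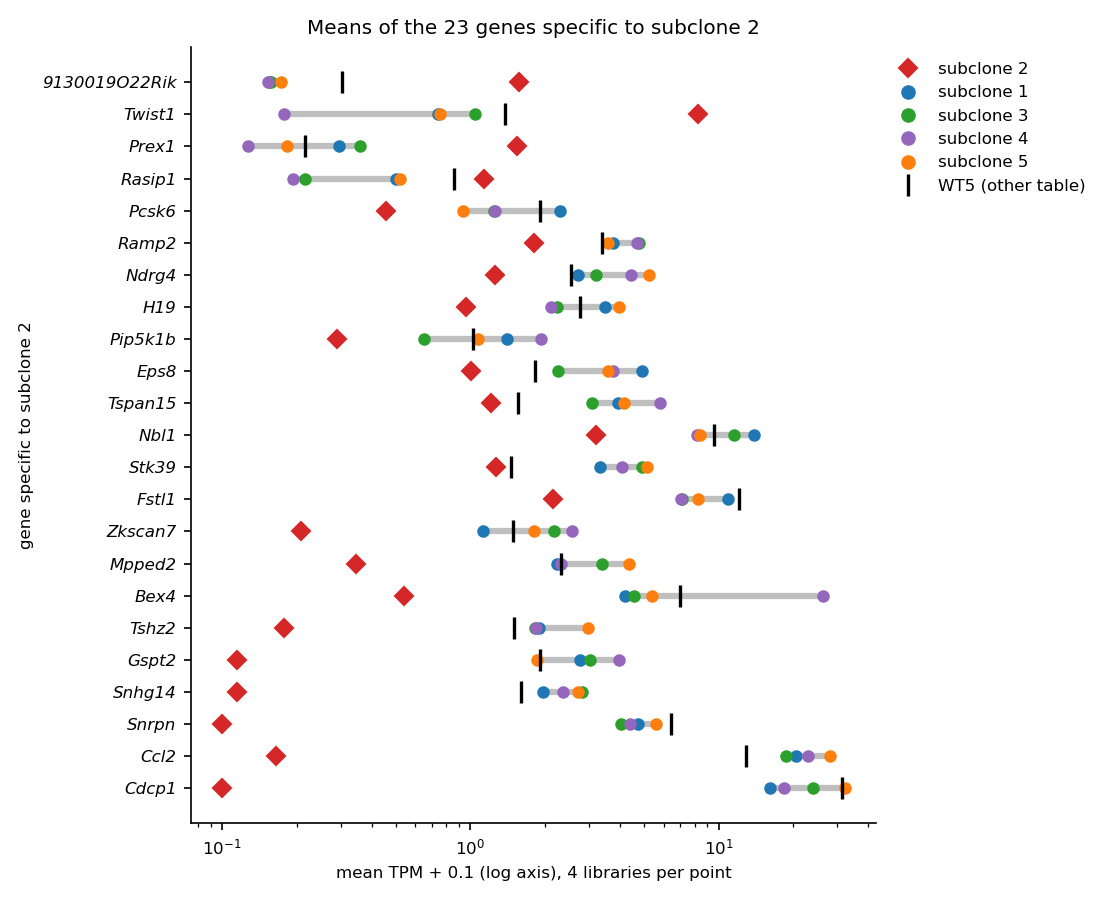
Mean TPM + 0.1 on a log axis (x) of the 23 specific genes (y), with subclone 2 as red diamonds, the 4 other subclones as circles joined by a grey bar, and WT5 of the separately normalized table as a black tick. The WT5 tick lies within or near the grey bar for most lower genes and next to the red diamond for Stk39, Tspan15 and Rasip1.

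The level in WT5 was used to describe on which side a difference arose. The position of WT5 was taken on the log2(TPM + 0.1) scale from the mean of the others (0) to subclone 2 (1), with no test because the tables were normalized separately. Over all genes kept, the median difference of the mean of the 5 subclones from WT5 was -0.077 on this scale, with the subclones lower. WT5 lay in the third next to the others for 15 of the 19 lower genes and for 2 of the 4 higher genes, Prex1 and 9130019O22Rik. It lay in the third next to subclone 2 for Stk39, Tspan15 and Rasip1. It lay between for Eps8 (0.51), Ndrg4 (0.37) and Twist1 (0.34). For most of the 23 genes WT5 thus lay on the side of the other subclones.

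The specific genes were spread over the genome. They lay on 12 chromosomes, with 6 on chromosome 7, 4 on chromosome 2 and 2 each on chromosomes 9, 11 and X. Within 500 kb of each specific gene, called neighbours were found for Snrpn and Snhg14 (each other), for Cdcp1 and Zkscan7 (each other), for Ramp2 (Arl4d) and for Rasip1 (Fut1). For the others no kept neighbour was called, and Ccl2 and Twist1 had no kept neighbour. The chemokine gene Ccl7 beside Ccl2 was listed at 0 in subclone 2 and at no more than 0.53 TPM in the others. The median log2 difference of subclone 2 per chromosome lay between -0.0043 and 0.051, except on chromosome 6 at 0.10. Subclone 4, one of the lines in the mean, stood at -0.36 on that chromosome. On chromosome 12, subclones 4 and 5 stood at 0.37 and -0.36, each against the mean of the other subclones, while subclone 2 was at 0.017.

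**Figure D4:**
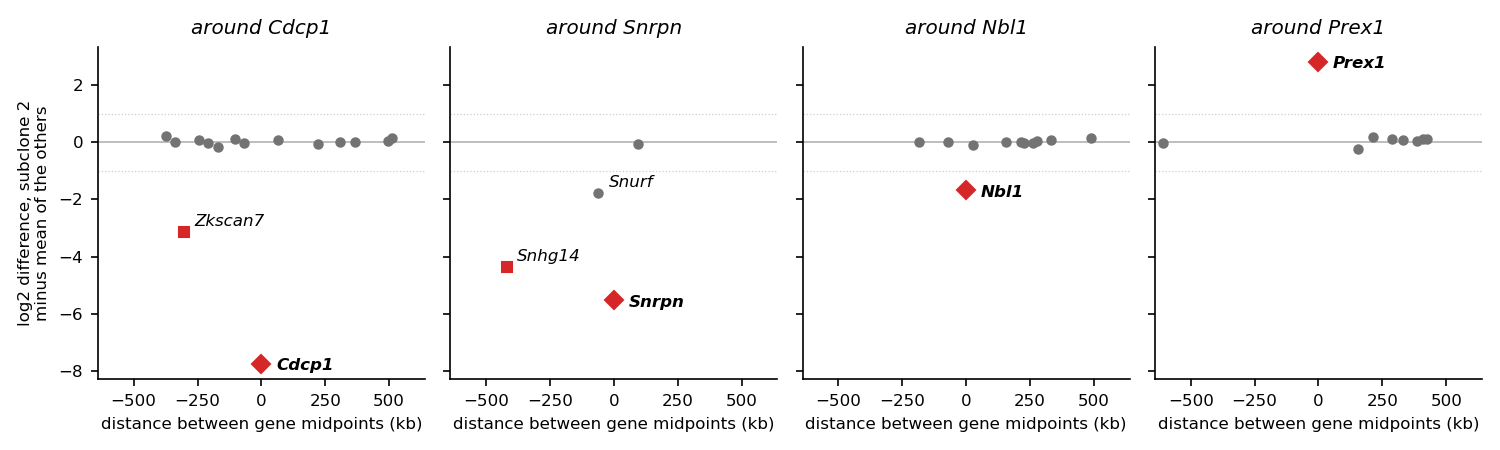
Log2 difference of subclone 2 from the mean of the others (y axis) against distance between gene midpoints in kb (x axis) for kept genes around Cdcp1, Snrpn, Nbl1 and Prex1. Red diamonds are the named genes, red squares other called genes, grey circles genes that were not called and dotted lines the threshold of size, and the called genes stand among neighbours near 0 except for Zkscan7, Snhg14 and Snurf, of which Snurf was not called.

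Several genes were called against the mean of the others where subclone 2 resembled some subclones and not the rest. Of 319 zinc finger (Zfp) genes kept, 6 were higher and none was lower, and none of the 6 was specific. Over all genes kept, 0.416% were higher and 0.367% lower, so that few lower genes are expected in a list of this size. Among the 122 Zfp genes with a lower mean in subclone 2, the unequal-variance test against the pooled others called 0. Of these genes 7 (5.74%) had an unadjusted p below 0.05 (limma). The share over all genes kept was 18.1%, but it covers both directions and is not a like comparison. Zfp503 had 6.60 ± 0.48 TPM in subclone 2 and 13.6 TPM in subclone 4, while subclones 1, 3 and 5 had 0.085, 0.12 and 0.053 TPM. Zfp111 had 4.46 ± 0.18 TPM in subclone 2 and 5.00 TPM in subclone 4, and 0.013, 0.48 and 0.065 TPM in subclones 1, 3 and 5. WT5 had 3.29 TPM for Zfp503 and 3.31 TPM for Zfp111, so that both were present in the parent line. Zfp109 and Zfp518b were also higher, with 1.39 ± 0.35 TPM and 1.39 ± 0.23 TPM in subclone 2.

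Slc14a2, the urea transporter gene of the inner medulla, was lower against the mean of the others, with 2 other subclones also low. It had 0.010, 0, 0 and 0 TPM in subclone 2, and 0.022 TPM in subclone 3 and 0.14 TPM in subclone 1 were low as well. Subclones 4 and 5 had 4.99 and 2.40 TPM, and WT5 had 0.29 ± 0.11 TPM. It was the only 1 called of 184 solute carriers and of 12 hypertonicity genes kept. Timp3, an inhibitor of metalloproteinases, was the only 1 called of 17 matrix and cell surface protease genes kept. It was called higher with 5.23 ± 0.53 TPM with subclone 1 near 0, at 0.020 TPM. Without subclone 1 its log2 difference was -0.17 (limma, adjusted p = 0.40), and it was the only named gene whose direction turned under any alternative.

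In the other lists with called members, 1 or 2 genes were called against the mean of the others, and some of these calls rested on 1 or 2 of the other subclones. The oxygen-responsive genes Ak4 (2.21 ± 0.45 TPM in subclone 2) and Aldoc (9.19 ± 0.31 TPM) were higher among 32 glycolysis and hypoxia genes, and WT5 had 3.86 TPM of Ak4. Aldoc had 11.9, 9.45 and 5.03 TPM in subclones 1, 4 and 5 and 0.45 TPM in subclone 3, and its call was lost without subclone 3. Scd1, the stearoyl-CoA desaturase gene, was lower among 34 cholesterol and fatty acid synthesis genes, at 1.98 ± 0.48 TPM in subclone 2 against 3.79 to 5.54 TPM in the means of the others. The adhesion genes Pcdh1 (10.6 ± 1.0 TPM, 9 protocadherins kept) and Adgrb1 (3.77 ± 0.25 TPM, 40 G protein-coupled receptors kept) and the channel gene Trpa1 (2.42 ± 0.29 TPM, 36 channels kept) were higher. Trpa1 had 0.39 TPM in subclone 1 and 0.88 to 2.19 TPM in the means of subclones 3, 4 and 5. Hoxc4 (1.39 ± 0.39 TPM) was higher among 23 Hox genes, with 0.043 TPM in subclone 1 and 0.81 to 1.13 TPM in subclones 3, 4 and 5. The calls of Trpa1 and Hoxc4 were both lost without subclone 1. Lhx2 (0.22 ± 0.18 TPM) and Pax9 (0.51 ± 0.082 TPM) were lower among 61 other developmental transcription factors, and Lhx2 was also low in subclone 4, at 0.14 TPM. Slit2 (0.43 ± 0.35 TPM) was lower among 42 guidance genes, and Krt20 (0.49 ± 0.25 TPM) among 7 keratins. Slit2 was as low in subclones 1 and 5, at 0.46 and 0.53 TPM, and kept its call in 7 of 20 fits without 1 library.

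No member was called in the lists of collagens (8 kept), laminins and integrins (28), growth factor ligands (19), Wnt (25), Notch (16), interferon response (38), claudins and tight junction (19), connexins (5), ERK feedback (23), ATF4 response (34), p53 targets (20), cell cycle (42), detoxification (67), lipoprotein, retinoid and prostaglandin metabolism (12), primary cilium (56), mitochondrial transcripts (15), mitochondrial ribosomal proteins (75), cytosolic ribosomal proteins (84), antigen presentation (20), histones (50) and S100 and annexin genes (18). The medians of these lists lay between -0.082 and 0.11 on the log2 scale. These lists are given together because they had no called member, so that the count of 0 is set by the grouping. Over their 663 kept members, limma called 0, and the unequal-variance test against the pooled others called 0. An unadjusted limma p below 0.05 was found for 155 (23.4%), beside 18.1% of all genes kept. These counts do not show that the lists were unchanged.

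A set of smaller differences also held against every other subclone. Another 15 genes were higher (0.122%) and 28 were lower (0.228%) in subclone 2 at an adjusted p below 0.01 against all 4 subclones (limma), with at least 1 difference under the threshold of size. Their values are given as examples chosen after they were seen. Gxylt2, a xylosyltransferase gene, had 30.7 ± 3.2 TPM in subclone 2 and 7.91 to 20.1 TPM in the others. The epithelial splicing factor gene Esrp1 had 20.8 ± 0.93 TPM in subclone 2 and 8.17 to 15.1 TPM in the others. The tight junction gene Cldn8 had 81.1 ± 5.1 TPM in subclone 2 and 114 to 152 TPM in the others. The proton pump subunit gene Atp6v0a4 had 0.89 ± 0.095 TPM against 1.23 to 1.76 TPM. WT5, in its separately normalized table, had 55.15 TPM of Cldn8 and 0.475 TPM of Atp6v0a4, both below subclone 2. It had 17.4 TPM of Gxylt2 and 14.25 TPM of Esrp1, both within the range of the others.

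At the thresholds themselves the genes lay close together. Rasip1, with a mean of 1.03 TPM in subclone 2, was just inside the level for analysis, and Gm38393, with a mean of 0.98 TPM in the others, was just outside it. In the size of the difference from the nearest subclone, Pcsk6 (-1.02) was just inside and Prss12 (0.95) just outside. Without the level filter 5 more genes would have been specific, all under 1 TPM on both sides. These were Gm38393, Rnls and Clec2l, lower, and Atf7ip2 and Gm14210, higher, named after their values were seen.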

How the data were processed

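RNA of 28 mIMCD-3 cultures was sequenced, 20 of them from the 5 subclones. The deposited TPM values (transcripts scaled to gene length and to a fixed total per library) were made by the authors; per the submitters' processing notes, CASAVA 1.8, STAR 2.7.3a and RSEM 1.3.1 were used with the GRCm38 build. The subclones and WT5 stand in 2 tables that were normalized separately, so no test crosses them. TPM keeps no depth, the smallest value above 0 is 0.01, and RSEM divides reads between genes that share sequence, so that such genes are uncertain and a gene listed at 0 may have had few reads.

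Groups were taken from the sample labels. Genes that reached a mean of 1 TPM on either side entered limma 3.58.1 (R 4.3.3) on log2(TPM + 0.1), with 1 mean per subclone over 20 libraries, two-sided, and Benjamini-Hochberg adjustment over all genes kept. Fold changes between means are on the TPM scale; log2 differences understate low genes. The rule compared libraries of 1 table. Z-scores (with limma) and a test with unequal variances (on log2(TPM + 0.1)) were thus run as 2 separate alternatives. Their combination, as in the study's methods, was not run. Against the mean, the unequal-variance test pooled the libraries of the other subclones, so that the spread between subclones entered its error. Named genes were the specific genes without overlap of libraries (up to 15 in each direction by difference from the nearest subclone), specific members of the 47 gene lists and up to 4 called members of each list. The genes and lists were chosen with earlier results of these data known.

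On simulated TPM values of 12116 genes for subclone 2 against the other 4, 97% of 100 genes changed by a log2 of 2 were recovered as specific. Of 100 genes changed by a log2 of 4, of which 99 passed the filter, 98% were recovered, with 0 false calls. Unchanged genes were given the same mean in every subclone. The 0 false calls therefore do not cover genes that differ between the other subclones. Symbols and positions came from GENCODE release M21 (GRCm38), promoter windows from RefSeq (GRCm38.p6), and 54 of the genes kept had no symbol. Shared sequence was counted as the share of 50-base stretches of the longest transcript that occur in that of another gene. Replicate numbers did not pair the libraries (mean correlation of deviations -0.0036 over 40 pairs with the same number). Alternatives changed the pseudocount, filter, scale, test, thresholds, centring, gene set, block and libraries.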

Additional observations from a re-analysis of the deposited data

Results flagged for a closer look

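Among the 42 named genes, the 4 libraries of subclone 2 and the 4 of WT5 were examined for a single library far from the other 3 in Dixon's test at the 95% level, and 9 of 84 groups (10.7%) held one, where about 1 in 20 is given by chance. Of the specific genes, Pcsk6 had 0.25 TPM in replicate 2 of subclone 2 and 0.38 to 0.40 TPM in the others. In WT5, Cdcp1 had 32.0 TPM in replicate 2 with 31.2 to 31.3 TPM in the others, and H19 had 1.44 TPM in replicate 2 with 3.02 to 3.16 TPM in the others. Among the genes called against the mean, Krt20 (0.87 TPM against 0.35 to 0.39 TPM) and Slit2 (0.96 TPM against 0.22 to 0.29 TPM) stood apart in replicate 4 of subclone 2. Lhx2 (0.48 TPM against 0.11 to 0.17 TPM) and Slc14a2 (0.010 TPM against 0) stood apart in replicate 1 of subclone 2. In WT5, Slc14a2 had 0.13 TPM in replicate 4 against 0.34 to 0.35 TPM, and Zfp111 had 2.88 TPM in replicate 3 against 3.43 to 3.50 TPM. The flagged libraries of subclone 2 were replicates 1, 2 and 4, so that no single library held all of them.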

How the results depend on the processing

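Of 1482 values of named genes under 37 alternative settings, 1332 kept their direction and call, 149 kept their direction without the call, and 1 reversed. That was Timp3, at -0.17 without subclone 1. These totals are raised by 20 settings that left out 1 library. An adjusted p threshold of 0.05 or no threshold on size could not lose a call. Of the specific genes, 8 of 23 kept their call under the unequal-variance test and 12 of 23 with a pseudocount of 1. On z-scores 3 of the 15 that could be fitted did. Specific genes numbered 3 to 5 higher and 16 to 20 lower over the 20 fits without 1 library, with 41 to 53 higher and 41 to 47 lower against the mean, and 19 of the 23 kept their call in each of these fits that held them. H19, Pcsk6 and Ramp2 lost it without replicate 2 of subclone 2, Pip5k1b and Ramp2 without its replicate 3, Pip5k1b without replicate 1 or 3 of subclone 3, Pcsk6 without replicate 3 of subclone 5, and Pcsk6 and Ramp2 without its replicate 4. Rasip1 was under the level filter without replicate 4 of subclone 2. Cdcp1, Ccl2, Snrpn, Gspt2, Twist1 and 9130019O22Rik kept their call in every alternative that could be fitted for them.

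Counts below are specific higher and lower, higher and lower against the mean, and called against subclones 1, 3, 4 and 5. A pseudocount of 1 gave 2 and 10, 15 and 22, and 71, 57, 105 and 89. A minimum of 5 TPM gave 1 and 5, 16 and 10, and 45, 32, 56 and 54, with fewer genes tested. Z-scores, which leave out genes with any 0 and shrink differences against the fixed threshold, gave 0 and 4, 3 and 5, and 16, 14, 31 and 26. The unequal-variance test gave 2 and 6, 26 and 21, and 45, 32, 102 and 38. Against the mean it counts the spread between the other subclones as error, and against single subclones it does not. How far this acts on the counts was not tested. No threshold on size gave 19 and 47, 231 and 264, and 370, 344, 1289 and 812. No filter gave 75 lower genes against the mean and 175, 314 and 238 called against subclones 3, 4 and 5, with more genes tested. A fit with 2 groups, which counts the spread between subclones as error, gave 9 higher and 23 lower genes against the mean. Without subclone 1, 4 or 5 there were 7, 7 and 8 specific higher genes, since fewer comparisons had to be passed. Since TPM keeps no depth, the precision of values near 0 is unknown.

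With the replicate number as a block, 4 higher and 19 lower genes were specific and 51 higher and 44 lower were called against the mean, and all 23 specific genes kept their call. Of the pairs of libraries with the same number, 6 of 40 correlated above 0.1 in their deviations, and of those with different numbers 17 of 120 did, so that the libraries share only a number.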
